A study of Mus musculus with 10 samples.

Results

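The Hippo pathway controls the coactivators YAP and TAZ. When the pathway is on, the LATS kinases phosphorylate them, and they are held in the cytoplasm or degraded. When it is off, they enter the nucleus, bind TEAD transcription factors and switch on genes for secreted matrix proteins, receptors and their own regulators. In the epidermis YAP is known for promoting the growth of basal cells, and it responds to cell density and to tension at adhesions.

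The 10 genes described here are the coactivator genes Yap1 and Wwtr1 (TAZ), the TEAD genes Tead1 and Tead3, the kinase genes Lats1 and Lats2, the angiomotin gene Amotl2, and the target genes Cyr61, Ctgf and Axl. A gene was included when a locus of status OK named it, and the levels in all 4 groups were known when the set was drawn up. All 10 had such a locus in both tables, out of 11290 tested basal and 11464 tested suprabasal loci. The set was selected on the authors' group levels and fold changes, so the values below are a description and no new test was run on them.

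Skin keratinocytes of FVB/N mice, taken at postnatal day 4, were sorted into a basal and a suprabasal fraction, and their RNA was sequenced. Wild type and bitransgenic HGPS (BT) mice were compared. In each layer there were 3 wild type and 2 bitransgenic samples, 10 samples in all. HGPS is Hutchinson-Gilford progeria, and the title of the series names progerin, the truncated lamin A of that disease. The labels used here name neither the transgenes nor the promoter that drives them, so the cells that make progerin are not specified by them. The sample titles hold 6 stems, of which 3 wild type and 1 bitransgenic are found for both cell fractions. Whether a stem stands for 1 animal is not stated, so p-values measure only the spread between samples, which may be technical.

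The authors' tables give 1 level per group, read as FPKM (fragments scaled by transcript length and library size), so no sample values, no spread between samples and no depth can be shown. A log2 fold change of a single gene is the one in the authors' deposited table, bitransgenic over wild type. The ± beside it is the standard error (SE) implied by the authors' p-value, and it is at most this large for genes at the table's lowest p, 5e-05. A gene is said to be called when the authors' q (adjusted p) was under 0.05.

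In basal cells 186 of 11290 loci were called, 157 lower and 29 higher in bitransgenic cells, and in suprabasal cells 54 of 11464. After centring on expressed loci and readjustment, 27 lower and 14 higher basal calls were left. In wild type, the 12 basal keratinocyte markers summed to 19133 FPKM in the basal fraction and 8910 FPKM in the other. Most of that came from merged loci that also name other keratins. The locus of Krt5 includes Krt2 (11677 and 5147 FPKM), and that of Krt14 includes Krt16 (4375 and 1994 FPKM). In bitransgenic cells the sums were 12294 and 4916 FPKM. Krt10, a suprabasal keratin, had 2319 and 6574 FPKM in wild type and 1601 and 2354 FPKM in bitransgenic cells. Krt1, another, had 1725 and 3419 FPKM, then 1750 and 1622 FPKM. The suprabasal cells also carried melanocyte transcripts: 10 of 11 markers were tested there and 3 of 11 in basal cells, and Dct stood at 1122 and 4.00 FPKM in wild type. The locus of Xist stood at 0.258 FPKM in wild type and 108 FPKM in bitransgenic basal cells, and at 0.236 and 103 FPKM in suprabasal cells. Xist is transcribed from the inactive X chromosome of female cells. The Y-linked genes were measured in all 4 groups: Ddx3y had 32.1 and 20.7 FPKM in wild type and bitransgenic basal cells and 31.2 and 14.1 FPKM in suprabasal cells, and Uty 63.6 and 25.5 FPKM, then 66.7 and 71.6 FPKM. Bitransgenic RNA thus held both Xist and Y-linked transcripts. The part of sex in the values below was not tested.

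Promoters of the target genes are shown first, because TEAD factors bring YAP and TAZ to DNA at the hexamer GGAATG. The sequences are the 250 bases before an annotated transcription start, from RefSeq on GRCm38.p6, read 5′ to 3′ on the strand of the gene. Capitals mark GGAATG or its reverse complement CATTCC.
Cyr61 (RefSeq Ccn1), chr3:145649986-145650235, minus strand: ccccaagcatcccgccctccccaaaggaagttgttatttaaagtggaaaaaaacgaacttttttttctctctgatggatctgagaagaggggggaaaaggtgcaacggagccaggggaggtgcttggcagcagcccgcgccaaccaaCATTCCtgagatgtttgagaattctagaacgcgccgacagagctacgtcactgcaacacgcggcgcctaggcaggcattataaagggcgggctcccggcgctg
Amotl2, chr9:102717554-102717803, plus strand: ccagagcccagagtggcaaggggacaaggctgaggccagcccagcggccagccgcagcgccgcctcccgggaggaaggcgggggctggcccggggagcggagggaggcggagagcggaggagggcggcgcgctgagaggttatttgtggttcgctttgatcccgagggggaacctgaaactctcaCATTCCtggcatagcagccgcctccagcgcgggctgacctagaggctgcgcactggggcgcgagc
Axl, chr7:25788734-25788983, minus strand: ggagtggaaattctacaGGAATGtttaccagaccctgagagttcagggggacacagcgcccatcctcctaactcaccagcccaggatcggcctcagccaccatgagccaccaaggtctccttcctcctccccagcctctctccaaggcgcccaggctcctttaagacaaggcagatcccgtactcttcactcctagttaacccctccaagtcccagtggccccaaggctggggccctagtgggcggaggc
Lats2, chr14:57746124-57746373, minus strand: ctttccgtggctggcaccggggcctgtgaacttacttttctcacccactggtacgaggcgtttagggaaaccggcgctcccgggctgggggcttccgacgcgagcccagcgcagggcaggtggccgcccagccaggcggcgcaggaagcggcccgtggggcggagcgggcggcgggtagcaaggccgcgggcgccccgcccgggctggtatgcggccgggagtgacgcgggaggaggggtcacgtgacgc

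The Cyr61 window holds 1 match, at positions -103 to -98 from the start, and a TATAAA element at -25 to -20. In Amotl2 the match lies at -65 to -60 and in Axl at -233 to -228. Lats2, itself described as a YAP target, has no match in the window shown nor in that of its second annotated start. GENCODE extends Lats2 to 57758388, beyond both windows, and the bases before that start were not searched. The Amotl2 window likewise lies inside the GENCODE gene, which begins at 102716672. Promoter windows were found for 8 of the 10 genes, and 6 of the 8 had the hexamer in at least 1 window (8 of 12 windows). Of all 32817 windows of this length, 12.6% held it. The other genes with a match were Yap1, Wwtr1 and Tead3, so it was not limited to the secreted and receptor targets. None of the 12 windows held the AP-1 motif TGANTCA or a CArG box, on either strand, against 6.75% and 1.47% of all windows. TATAAA was in 12.4% of all windows. A match is a run of letters and not a measured binding site. Ctgf and Tead1 had no entry in the table of promoters.

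**Figure D1:**
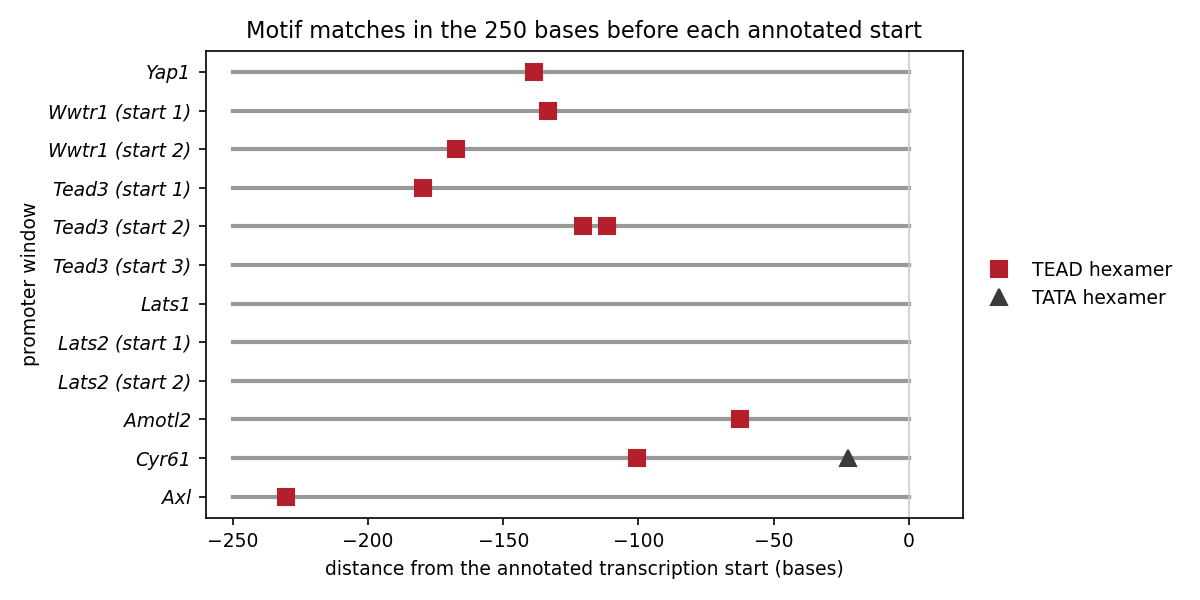
Motif matches in the 250 bases before each annotated start of the 8 genes with a promoter sequence (x axis: distance from the start in bases; grey lines: windows; red squares: GGAATG on either strand; triangle: TATAAA). Matches appear in Yap1, Wwtr1, Tead3, Amotl2, Cyr61 and Axl, and the windows of Wwtr1 overlap, so both show the same match.

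Across the set, the targets Cyr61 and Ctgf and the angiomotin gene Amotl2 had lower levels in bitransgenic cells of both layers. The log2 fold changes of the target Axl were -0.78 in basal and 0.22 in suprabasal cells. Those of the coactivator, TEAD and kinase genes lay between -0.35 and 0.62. Of the 10 genes, 1 was called in basal cells, Cyr61, against 1.65% of all tested loci. None was called in suprabasal cells, where 0.471% of loci were. At an unadjusted p under 0.05, 3 genes passed in basal cells (Cyr61, Amotl2 and Ctgf) and 2 in suprabasal cells (Cyr61 and Ctgf), against 7.68% and 7.11% of loci. The rule used this contrast, so nothing is read from these counts. In each layer 6 genes were lower and 4 higher in bitransgenic cells, with the locus that merges Lats2 and Xpo4 counted among the 4. The median log2 ratio of the 10, with a pseudocount of 1 FPKM, was -0.16 in basal and -0.16 in suprabasal cells, against -0.11 and -0.075 for all tested loci.

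**Figure D2:**
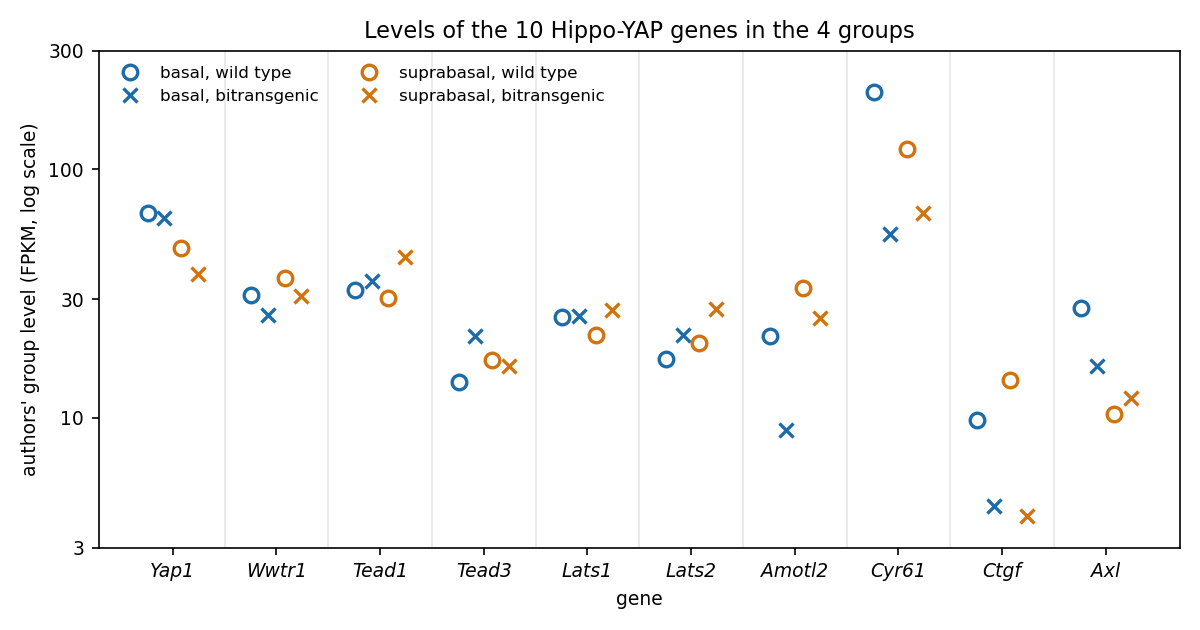
Levels of the 10 genes in the 4 groups (y axis: authors' group value in FPKM, log scale; circles: wild type; crosses: bitransgenic; blue: basal; orange: suprabasal; 1 pooled value each, with no error). Cyr61 spans 55.1 to 206 FPKM and Ctgf 4.02 to 14.2 FPKM, while each coactivator, TEAD and kinase gene varies less.

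The genes differed widely in level, on a scale that allows for transcript length. In wild type basal cells the levels ran from 9.79 FPKM for Ctgf to 206 FPKM for Cyr61, with a median of 26.6 FPKM, and 9 of the 10 lay above the median of all tested loci, 12.7 FPKM. In wild type suprabasal cells they ran from 10.3 FPKM for Axl to 121 FPKM for Cyr61, with 9 of the 10 above the median of all loci, 12.4 FPKM. Cyr61 was the highest of the 10 in 3 groups, and in bitransgenic basal cells Yap1 at 63.7 FPKM stood above Cyr61 at 55.1 FPKM. Without a spread between samples, the order of neighbours such as Lats1, Axl and Wwtr1 in wild type basal cells (25.5, 27.8 and 31.3 FPKM) cannot be resolved.

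Yap1, which encodes the coactivator YAP, stood at 66.6 FPKM in wild type and 63.7 FPKM in bitransgenic basal cells, and at 48.3 and 37.8 FPKM in suprabasal cells. It was the highest of the coactivator, TEAD and kinase genes in each group except bitransgenic suprabasal cells, where Tead1 had 44.2 FPKM. The log2 fold changes were -0.065 ± 0.37 in basal cells (authors' q = 0.950) and -0.35 ± 0.36 in suprabasal cells (authors' q = 0.873). Both differences are smaller than their standard errors.

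Wwtr1 encodes TAZ, the paralogue of YAP. Its leading locus stood at 31.3 FPKM in wild type and 25.9 FPKM in bitransgenic basal cells, and at 36.6 and 30.8 FPKM in suprabasal cells. The log2 fold changes were close in size, -0.27 ± 0.28 and -0.25 ± 0.36, with q = 0.665 and 0.937. These levels lay below those of Yap1 in all 4 groups. In bitransgenic suprabasal cells (30.8 against 37.8 FPKM) that order cannot be resolved without a spread between samples. The authors' tables hold further lines under the name Wwtr1 with the same coordinates. One went from 2.68 to 1.42 FPKM in basal and from 4.79 to 1.97 FPKM in suprabasal cells, and another, tested in basal cells alone, from 6.09 to 14.7 FPKM. None of these passed, with SE of 1.70 to 2.75 on the log2 scale. GENCODE places Wwtr1 on the minus strand. By locus number, 20 of the 20 nearest single-gene loci of the leading line are minus strand genes, whereas 19 and 18 of those nearest the further lines are plus strand genes, so the further lines may not be Wwtr1 message. They are not used further.

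Tead1 and Tead3 encode TEAD factors, the DNA-binding partners of YAP and TAZ. Tead1 stood at 32.8 and 35.7 FPKM in wild type and bitransgenic basal cells, and at 30.4 and 44.2 FPKM in suprabasal cells. The suprabasal log2 fold change of Tead1 was 0.54 ± 0.46 (authors' q = 0.843), and the basal one 0.12 ± 0.42 (authors' q = 0.917). Tead3 had the larger of its 2 values in basal cells, at 13.9 and 21.3 FPKM (0.62 ± 0.49, authors' q = 0.543). In suprabasal cells Tead3 stood at 17.0 and 16.2 FPKM (-0.074 ± 0.37, authors' q = 0.990). Neither gene was called in either layer. The Tead1 locus spans 112613468 to 112906807 on chromosome 7 (mm10) and covers, beside Tead1, part of the antisense non-coding gene 2310014F06Rik and a snoRNA gene, whose reads may be part of its value.

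Lats1 and Lats2 encode the kinases that phosphorylate YAP and TAZ, and Lats2 is also one of their targets. Lats1 stood at 25.5 and 25.8 FPKM in basal cells (0.014 ± 0.29, authors' q = 0.987) and at 21.6 and 27.2 FPKM in suprabasal cells (0.33 ± 0.35, authors' q = 0.881). Lats2 stood at 17.2 and 21.6 FPKM in basal cells (0.33 ± 0.48, authors' q = 0.782) and at 20.01 and 27.4 FPKM in suprabasal cells (0.45 ± 0.43, authors' q = 0.860). The differences of Lats1 were below 1 SE in both layers. The Lats2 value belongs to a merged locus, chromosome 14 from 57577648 to 57758388, that also names the nuclear export gene Xpo4. It cannot be split between the genes, so it sets no direction for Lats2.

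Amotl2 encodes an angiomotin-like protein of cell junctions that binds YAP and whose gene is in turn switched on by it. It stood at 21.4 FPKM in wild type and 8.90 FPKM in bitransgenic basal cells, and at 33.2 and 25.2 FPKM in suprabasal cells. The basal log2 fold change was -1.27 ± 0.48, a level 0.415 times that of wild type, at q = 0.0948 in the authors' deposited table, which missed the threshold. In suprabasal cells it was -0.40 ± 0.51 (authors' q = 0.917). Bitransgenic basal cells were thus the low group, and the other 3 groups lay at 21.4 FPKM or above.

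Cyr61 (CCN1) encodes a secreted matrix-associated protein and is among the most used readouts of YAP. It stood at 206 FPKM in wild type and 55.1 FPKM in bitransgenic basal cells, and at 121 and 66.7 FPKM in suprabasal cells. Wild type basal cells were the high group and both bitransgenic groups were low. The basal log2 fold change was -1.90 ± 0.47, a level 0.268 times that of wild type, with authors' q = 0.00858 at the lowest p of the table. In suprabasal cells it was -0.86 ± 0.39, 0.552 times wild type, with authors' q = 0.363, so it was not called. The locus covers chromosome 3 from 145645987 to 145649985 (mm10), where GENCODE places no other gene.

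Ctgf (CCN2) encodes a second secreted protein of the same CCN family. It stood at 9.79 FPKM in wild type and 4.42 FPKM in bitransgenic basal cells, and at 14.2 and 4.02 FPKM in suprabasal cells. Both bitransgenic groups were at or below 4.42 FPKM and both wild type groups at or above 9.79 FPKM. The log2 fold change was -1.15 ± 0.46 in basal cells (authors' q = 0.127) and -1.82 ± 0.54 in suprabasal cells (authors' q = 0.0854), and neither was called. Levels this low depend on the pseudocount: with 5 FPKM added, the log2 ratios were -0.65 and -1.09. The locus runs from 24549441 to 24598683 on chromosome 10 and is longer than Ctgf itself (24595442 to 24598683), because the antisense gene Gm15270 lies across it. The libraries were strand-specific per the labels, but whether counting used the strand is not given in the sources used here.

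Axl encodes a receptor tyrosine kinase that cells switch on through YAP, and its ligand is Gas6. Axl stood at 27.8 FPKM in wild type and 16.2 FPKM in bitransgenic basal cells, and at 10.3 and 12.0 FPKM in suprabasal cells. The log2 fold changes were -0.78 ± 0.56 (authors' q = 0.467) and 0.22 ± 0.45 (authors' q = 0.965), so neither was called. Wild type basal cells were again the high group. Gas6, not one of the 10 genes, was called in basal cells, where it went from 45.9 to 18.0 FPKM (-1.35 ± 0.36, authors' q = 0.0189), and stood at 35.3 and 16.4 FPKM in suprabasal cells (authors' q = 0.141). Of the list of related receptors and ligands, Gas6 was the 1 called of 3 tested in basal cells, and 0 of 3 were called in suprabasal cells, where 1 of the 3, Gas6, had an unadjusted p under 0.05. Of all loci, 1.65% were called in basal and 0.471% in suprabasal cells, and 7.11% of suprabasal loci had an unadjusted p under 0.05. After the fold changes were centred on expressed loci, Gas6 was no longer called. The other ligand, Pros1, stood at 4.46 and 8.37 FPKM in suprabasal cells (authors' q = 0.649). The medians of the 3 were -0.27 and -0.47.

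**Figure D3:**
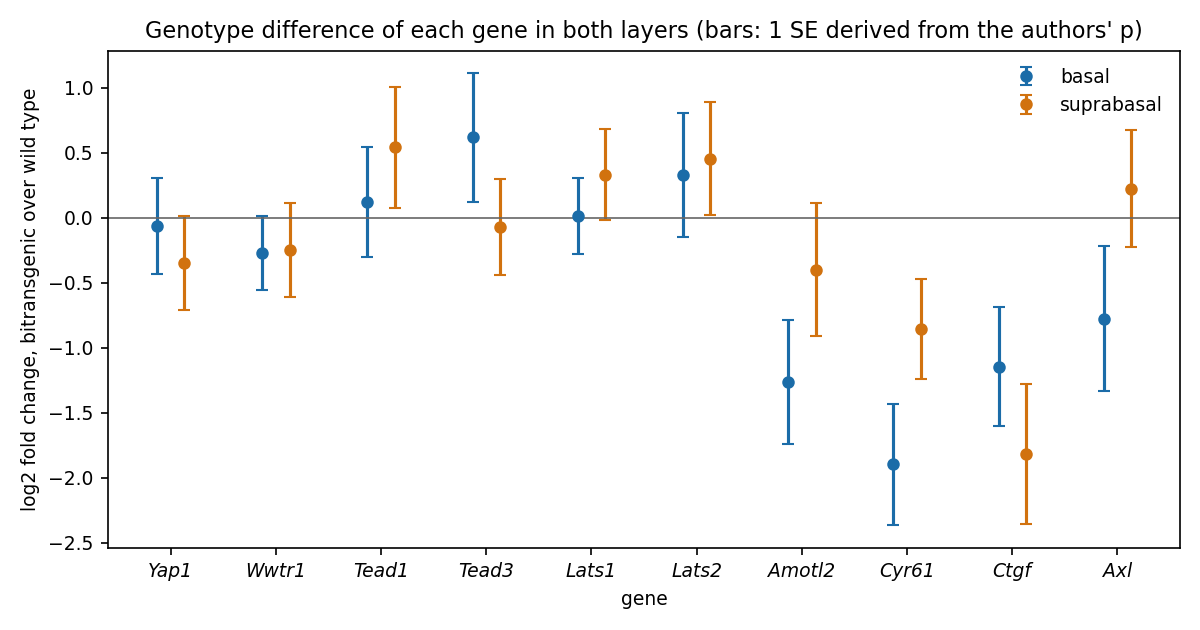
Log2 fold change of each gene, bitransgenic over wild type, in basal (blue) and suprabasal (orange) cells (points: authors' deposited values; bars: 1 SE derived from the authors' p). Cyr61, Ctgf and Amotl2 lie below 0 in both layers, from -1.90 to -0.40. Axl lies at -0.78 in basal and 0.22 in suprabasal cells, and the coactivator, TEAD and kinase genes lie between -0.35 and 0.62.

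The layers were also set side by side within a genotype, with the limit that the tables were normalized separately and that the layers are compared here without replicate values. In wild type, Axl had the lowest suprabasal level relative to basal (0.372 times), followed by Cyr61 (0.588 times) and Yap1 (0.725 times), and Amotl2 had the highest (1.55 times). The log2 ratios with a pseudocount of 1 FPKM were -1.34, -0.76, -0.46 and 0.61. In bitransgenic cells Cyr61 was higher in the suprabasal layer (1.21 times), Axl stood at 0.743 times, Yap1 at 0.594 times and Amotl2 at 2.83 times. The ratio was higher in bitransgenic than in wild type cells for Axl, Cyr61 and Amotl2, and lower for Yap1. It was also lower for Ctgf, at 1.45 times in wild type and 0.910 times in bitransgenic cells, and for Tead3, at 1.23 and 0.760 times. Of the 10 genes, 5 in wild type and 6 in bitransgenic cells had the higher level in the suprabasal layer, with median log2 ratios of 0.050 and 0.16 against -0.033 and -0.024 for loci tested in both layers.

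The log2 fold change with genotype was higher in suprabasal than in basal cells by 1.04 for Cyr61, 0.997 for Axl and 0.87 for Amotl2. It was also higher for Tead1 (0.42), Lats1 (0.32), the merged Lats2 locus (0.13) and Wwtr1 (0.025). It was lower in suprabasal cells for Tead3 (a difference of -0.69), Ctgf (-0.67) and Yap1 (-0.29). By construction these differences are the change of the layer ratio between genotypes, described above, on the log2 scale, and not a further result. The values of the 10 genes chose them, so these differences are given without their p. Over all 10583 loci tested in both layers, these 10 included, a two-sided Wald z-test of the layer difference with Benjamini-Hochberg adjustment called 4 loci (0.0378%), and 326 (3.08%) had an unadjusted p under 0.05. Its variance is the sum over the layers, with no allowance for the 3 wild type and 1 bitransgenic title stems they share. None of the 4 was in a gene list used here. The melanocyte markers summed to 2148 FPKM in wild type and 3979 FPKM in bitransgenic suprabasal cells, against 8.38 and 12.9 FPKM in basal cells. All 10 tested in suprabasal cells had log2 fold changes above 0, with a median log2 ratio of 0.85 against -0.075 for all loci. None was called, against 0.0523% of loci called higher. At an unadjusted p under 0.05, 5 of the 10 markers were higher, against 1.95% of all loci. Their part in the suprabasal levels of Axl, Ctgf and the other genes was not tested.

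The genes with the most similar pattern over the 4 groups were found by Euclidean distance between log2(FPKM + 1) values after each gene's mean was subtracted, among 7124 single-gene loci with at least 5 FPKM in every group. Nearest to Cyr61 were Polr1d (distance 0.239), 1700021K19Rik (0.242), 2610035D17Rik (0.300), the immediate early factor gene Egr1 (0.320) and Megf6 (0.321). Egr1 went from 885 to 290.3 FPKM in basal and from 548 to 257 FPKM in suprabasal cells. Nearest to Ctgf were Mrps12 (0.186), Npl (0.216), Arhgap24 (0.241), Sytl1 (0.298) and 2310035C23Rik (0.329). For Amotl2 they were Scarna2 (0.233), 4930402H24Rik (0.249), D4Wsu53e (0.277), Rmrp (0.293) and Sat1 (0.306), of which Scarna2 and Rmrp are short non-coding RNA genes. With 4 group values per gene, these distances are a description.

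Other genes of the pathway were read from lists of the kinase cascade, of junction and polarity regulators, of the STRIPAK phosphatase with 14-3-3 and turnover factors, and of nuclear partners. No gene of these 4 lists was called in either layer, among 81 tested in each, against 1.65% of all basal and 0.471% of all suprabasal loci. By the authors' unadjusted p under 0.05, 3 were lower and 1 was higher in basal cells, against 6.21% and 1.47% of all loci, and 6 were lower and none higher in suprabasal cells, against 5.16% and 1.95%. The median log2 ratio of the 81 was -0.025 in basal and -0.13 in suprabasal cells.

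Among 17 kinase cascade genes in basal cells the median was 0.038, and among 16 in suprabasal cells -0.14. Stk3, which encodes MST2, had 11.7 and 16.9 FPKM in basal cells (0.53 ± 0.61), and Taok2, an upstream kinase gene, 16.7 and 8.92 FPKM (-0.90 ± 0.47, authors' q = 0.412). In suprabasal cells the scaffold gene Sav1 had 9.24 and 13.2 FPKM (0.51 ± 0.63). Mob1b, whose product activates LATS, had 25.8 and 11.3 FPKM there (-1.19 ± 0.45, authors' q = 0.172), against 20.4 and 25.7 FPKM in basal cells.

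Of the junction and polarity regulators, 28 were tested in basal and 30 in suprabasal cells, with medians of -0.21 and -0.12. The tight junction gene Tjp1 had 30.4 and 47.5 FPKM in basal cells (0.65 ± 0.45), and Rassf8 had 4.64 and 7.43 FPKM in suprabasal cells (0.68 ± 0.50). Fjx1, a relative of the fly gene four-jointed and a YAP target too, had 8.30 and 4.76 FPKM in basal cells (-0.80 ± 0.40, authors' q = 0.354) and 7.56 and 2.48 FPKM in suprabasal cells (-1.61 ± 0.60, authors' q = 0.152). The medians of the phosphatase and retention list were 0.12 over 23 genes and -0.12 over 22. Its largest differences above and below 0 in basal cells were those of Pdcd10 (3.91 to 12.8 FPKM, 1.71 ± 0.93) and the kinase gene Csnk1e (30.04 to 15.4 FPKM, -0.96 ± 0.43). In suprabasal cells they were those of Cttnbp2nl (12.5 to 19.2 FPKM, 0.62 ± 0.35) and Strn4 (39.7 to 24.3 FPKM, -0.71 ± 0.44).

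Nuclear partners, 13 in each layer, had medians of 0.016 and -0.014. Tead4, another TEAD gene, had 3.44 and 5.49 FPKM in basal cells and 4.48 and 8.56 FPKM in suprabasal cells (0.93 ± 0.49, authors' q = 0.568). Smad3, a partner of YAP in TGF-beta signalling, had 28.4 and 13.6 FPKM in basal cells (-1.06 ± 0.87). Runx1 had 16.4 and 9.94 FPKM in suprabasal cells (-0.72 ± 0.34, authors' q = 0.431). None of these passed.

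Further YAP and TAZ targets were taken from a published human cancer signature and from often cited targets, 20 of which were tested in each layer. In basal cells 2 were called lower and none was called higher, against 1.39% and 0.257% of all loci. Igfbp3, which encodes an IGF-binding protein, fell from 30.8 to 3.30 FPKM (-3.22 ± 0.79, authors' q = 0.00858), and Thbs1, which encodes thrombospondin, from 69.4 to 38.1 FPKM (-0.87 ± 0.29, authors' q = 0.0457). In suprabasal cells none was called, where 0.419% of loci were called lower and 0.0523% higher. Igfbp3 had 8.81 and 1.77 FPKM there (-2.32 ± 0.71, authors' q = 0.110). By the authors' unadjusted p under 0.05, 7 of the 20 were lower in basal and 6 in suprabasal cells, against 6.21% and 5.16% of all loci, and none was higher, against 1.47% and 1.95%. The list median was -0.23 in basal and -0.42 in suprabasal cells, and in each layer 14 of 20 lay below 0, against 60.3% and 56.6% of all loci. Among targets with at least 5 FPKM in the higher group, Areg, the amphiregulin gene, had the largest value in the other direction, with 3.41 and 10.1 FPKM in basal cells (1.57 ± 0.83, authors' q = 0.433) and 4.18 and 9.30 FPKM in suprabasal cells (1.15 ± 0.62, authors' q = 0.581). After the p-values were readjusted over the analysed loci, 1 of the 2 basal calls was left, that of Igfbp3. Fjx1 and Ajuba are also in the junction and polarity list. The unadjusted basal counts of both lists include these genes, and the suprabasal counts include Fjx1.

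**Figure D4:**
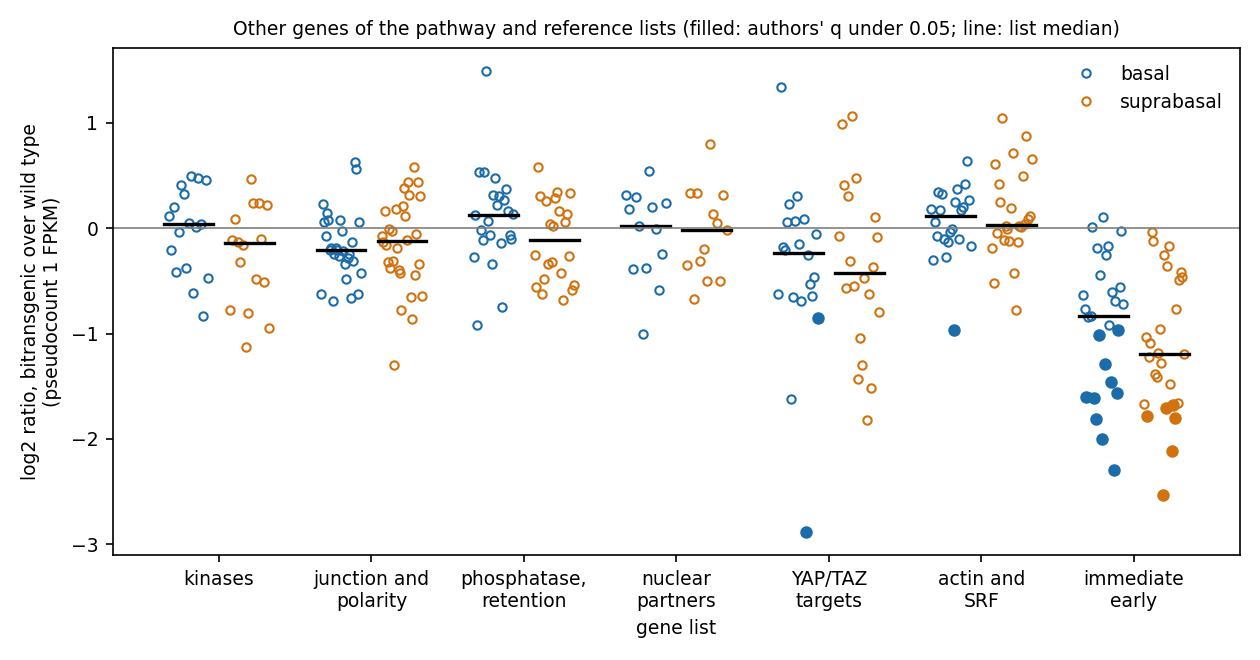
Log2 ratios, bitransgenic over wild type with a pseudocount of 1 FPKM, of the other pathway genes and reference lists (each point 1 gene; blue: basal; orange: suprabasal; filled: authors' q under 0.05; black line: list median). Regulator lists have medians between -0.21 and 0.12, and the targets -0.23 and -0.42. The immediate early list, which includes chaperone genes, has -0.83 and -1.19.

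Immediate early genes are induced within minutes in handled or stressed cells. The list read here also holds the heat shock chaperone genes Dnajb1, Hspa1a, Hspa1b and Hsph1. Of its 27 loci in each layer, 10 were called lower in basal cells and 6 in suprabasal cells, and none was called higher in either. The list medians were -0.83 and -1.19, against -0.11 and -0.075 for all loci. Of all loci, 1.39% were called lower and 0.257% higher in basal cells, and 0.419% and 0.0523% in suprabasal cells. The genes called lower in basal cells were Fos, Fosb, Fosl2, Junb, Ier2, Klf2, Klf6, Maff, Dnajb1 and a locus that merges Hspa1a with Hspa1b. In suprabasal cells they were Junb, Jund, Ier2, Klf2, Dnajb1 and that same merged locus. All 27 loci of the list, called or not, summed to 7201 FPKM in wild type and 3422 FPKM in bitransgenic basal cells. In suprabasal cells they summed to 6024 and 2466 FPKM. Klf2, a shear and stress factor gene, went from 15.8 to 2.44 FPKM in basal cells, and Junb, an AP-1 subunit gene, from 229 to 52.4 FPKM in suprabasal cells. Other members of the list differed little in basal cells, such as Nr4a1 at 89.1 and 87.2 FPKM and Egr3 at 22.9 and 23.1 FPKM. The part of this difference in the values of Cyr61, Ctgf and Amotl2 was not tested. Readjusted over the analysed loci, 5 of the basal calls of this list were left, and 3 after centring.

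Markers of other cell types that can express CCN genes and Axl were read in the same way. In bulk samples, fewer cells of a type and less RNA per cell cannot be told apart. The calls below stand beside 1.39% of all loci called lower and 0.257% higher in basal cells. In suprabasal cells these shares were 0.419% and 0.0523%. Of 12 fibroblast markers 6 were tested in basal cells, with a summed level of 518 FPKM (wild type) and 354 FPKM (bitransgenic), and 9 were tested in suprabasal cells, with 271 and 214 FPKM. Most of that sum came from Postn (291 and 161 FPKM in basal cells, 119 and 38.2 FPKM in suprabasal cells, where it was called) and Sparc (179 and 135 FPKM in basal cells), and Col1a1 and Pdgfra had no tested locus in basal cells. Col5a2 was called in basal cells (4.62 to 0.695 FPKM). The list did not go 1 way: in suprabasal cells 6 of the 9 lay above 0 and the median was 0.37, and in basal cells 1 of 6 lay above 0 and the median was -0.80. Thy1 had 28.7 and 51.9 FPKM in basal and 12.5 and 23.4 FPKM in suprabasal cells, and Col1a2 3.69 and 10.4 FPKM and Col3a1 3.02 and 6.13 FPKM in suprabasal cells, and none of these was called. Endothelial markers were limited to 1 of 10 in basal cells, the merged locus of Egfl7 at 3.27 and 3.68 FPKM, and none in suprabasal cells. Of 12 leukocyte markers 1 was tested in basal (5.79 and 5.02 FPKM) and 2 in suprabasal cells (14.2 and 16.4 FPKM summed). Of 9 muscle and pericyte markers, only Tnni2 and Cspg4 were tested in basal cells, and both were called lower (12.6 to 2.39 FPKM summed). Cspg4 had 8.26 and 10.8 FPKM in suprabasal cells. Among keratinocyte markers, Krt15 was the 1 called of 12 in the basal list in each layer. It went from 1602 to 308 FPKM and from 1025 to 124 FPKM. Of the 12 in the suprabasal list, Dsc1 was called higher and Lor lower in basal cells, and none was called in suprabasal cells. The part of these markers in the values of the 10 genes was not tested.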

How the data were processed

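RNA was measured in 10 samples of sorted keratinocytes. Per the submitters' processing notes, TopHat, Cufflinks and build mm10 were used. The 2 deposited tables have the form of a Cuffdiff output, with 1 FPKM value per genotype and layer, pooled by the authors over replicates. The header names no unit, and FPKM was read from that form. The deposited log2 fold change, test statistic (a score), p-value and q-value are the authors'. Filters and scaling between libraries are not given in the sources used here. Depth per sample is unknown.

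From these, loci of status OK were kept, and 26 HIDATA loci per table were left out. The SE was the absolute log2 fold change over the normal quantile of the authors' p, since the deposited statistic was about 0.631 (basal) and 0.628 (suprabasal) times that quantile. A gene with several loci was represented by the one tested in both tables with the highest level. Medians used a pseudocount of 1 FPKM, and single genes the deposited fold change. Starts were raised by 1, because 59.6% of single-gene starts then met a GENCODE transcript start, against 1.86% as written.

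The members and lists were chosen with earlier results of these data known. Named genes were the members, called list genes, the largest rise and fall of each list at 5 FPKM or more, and the 5 nearest patterns. The readjustment and layer test were run on simulated data with normal noise, independent layers and SE capped at their median. That setting does not cover the shared title stems or the larger SE of the real loci. Python 3.11.15, pandas 2.3.3, NumPy 2.4.6 and SciPy 1.17.1 were used.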

Additional observations from a re-analysis of the deposited data

How the results depend on the processing

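Cyr61 stayed called in basal cells after readjustment over the analysed loci (adjusted p 0.0128) and after centring (adjusted p 0.0481). The other alternatives of the 5 only left out low or merged loci, so they could not change the call of Cyr61. No member was called in suprabasal cells under any of the 5. Basal calls over all loci fell from 186 to 63 after readjustment and to 41 after centring on expressed loci. The share lower was 84.4% as deposited, 82.5% after readjustment and 65.9% after centring. The layer test called 2 loci among those with at least 1 FPKM in all 4 groups, against 4. Expressed loci had a median log2 fold change of -0.11 in basal cells. Centring on it gave basal medians of -0.063 for the members, 0.14 for kinases, -0.10 for junction and polarity regulators and 0.22 for the phosphatase list. They were 0.12 for nuclear partners, -0.13 for targets, -0.17 for Axl-related genes, 0.21 for actin genes and -0.73 for the immediate early list. Without merged loci the basal member median was -0.26. With a pseudocount of 5 FPKM, suprabasal medians were -0.32 for targets, -0.35 for Axl-related genes and -1.09 for the immediate early list. Centring by construction subtracts the median, and other causes were not tested. Of 60 alternatives for single members' fold changes, 58 lay within 1 derived SE, the exceptions being Ctgf in both layers. The sign changed for 2 members at values near 0, Yap1 in basal cells (0.047 centred) and Tead3 in suprabasal cells (0.0060 centred). Counting all Wwtr1 loci, an alternative chosen after seeing the data, gave member medians of -0.16 in basal and -0.24 in suprabasal cells. No paired analysis was possible because 1 pooled value per group was analysed, and leaving out single replicates was not run for the same reason. Precision is limited by 3 and 2 samples per group and by unknown depth.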

Other observations

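Genes of the actin cytoskeleton and of serum response factor (SRF) were read beside the Hippo-YAP genes, since tension in the cytoskeleton is known to feed into YAP. In basal cells 1 of 22 was called, and in suprabasal cells none of 24, against 1.65% and 0.471% of all loci. At an unadjusted p under 0.05, 1 was higher and 1 lower in basal cells, against 1.47% and 6.21% of all loci. In suprabasal cells 2 were higher and 1 lower, against 1.95% and 5.16%. Rhob, which encodes a small GTPase and is itself an early response gene, fell from 56.99 to 28.6 FPKM in basal cells (-0.99 ± 0.33, authors' q = 0.0403 in the authors' deposited table). That call ended after readjustment over the analysed loci. In suprabasal cells Rhob stood at 93.5 and 54.3 FPKM (authors' q = 0.430). Other members had values on the other side. The tropomyosin gene Tpm4 had 91.4 and 143 FPKM in basal cells (0.64 ± 0.27, authors' q = 0.172), and the calponin gene Cnn3 11.6 and 25.1 FPKM in suprabasal cells (1.11 ± 0.43, authors' q = 0.183). The list medians were 0.11 in basal and 0.029 in suprabasal cells, against -0.11 and -0.075 for all tested loci. Srf itself differed by -0.11 ± 0.82 in basal and 0.015 ± 0.83 in suprabasal cells on the log2 scale.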
